A study of Mus musculus with 5 samples.

Results

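The interferon response genes described here are a set of 52 mouse genes named by symbol: 6 encode the receptors and receptor kinases through which interferons signal and 46 are genes that interferons induce. Of the 52, 49 had a probe set of their own in the deposited table, 6 receptors and kinases and 43 induced genes, out of 18193 genes measured. Where a gene had several probe sets, the one with the highest mean of log2(intensity + 16) was used. Isg15 and Gbp4 were listed only on probe sets shared with another gene and Ifi44 was not listed on any, so these 3 members have no value here. Of the 43 induced genes, 41 passed the filter on low values and were tested (highest of the 5 intensities at least 25.1, the median of all values), as were 6 of 6 receptors and kinases, among 12609 genes tested. Oas2 and Mx2 did not pass.

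The arrays carried RNA of NT2.5 cells, a mammary tumour line derived from mice that carry a neu (rat Erbb2) transgene. Single Affymetrix arrays measured the bone sub-line at passage 6 (Bo6) and passage 3 (Bo3), the liver sub-line at passage 3 (Li3) and passage 1 (Li1), and the parental cells (WT), all without any treatment named in the labels. The labels name bone as the site to which the bone sub-line spreads, liver for the liver sub-line, and bone, liver and lung for the parental cells. The question was which genes set the sub-lines of 1 parental line apart from each other and from it. Bo6 and Li3 are the final passages and Bo3 and Li1 the early ones, and the labels do not say whether a passage was a round in mice or in culture. Each passage was measured once, so a difference between single arrays has no replicate check. Values are the deposited intensities, in arbitrary linear units, unless a log2 scale is named, and a fold is the ratio of intensity + 16, which makes it too small for dim genes.

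Interferons are secreted proteins that bind receptor pairs on the cell surface, Ifnar1 with Ifnar2 for type I interferons and Ifngr1 with Ifngr2 for interferon gamma. Receptor-bound kinases, Jak1 with Tyk2 for type I interferons and Jak1 with Jak2 for interferon gamma, then activate STAT proteins, which bind interferon-stimulated response elements (ISRE), together with Irf9, or gamma-activated sequences (GAS) in promoters. The induced genes encode sensors of foreign nucleic acid, proteins that block viral replication, GTPases that attack vacuoles of intracellular microbes, and regulators that strengthen or end the response. In tumour cells a raised level of these genes without infection is often described.

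The marker genes of the labelled cell type were present on each array: the summed intensity of 8 mammary epithelial and tumour genes was 26214.3 in Bo6, 22715 in Bo3, 22433.7 in Li3, 21894.3 in Li1 and 22526 in WT. Krt19, one of the 8, read at most 3.3. The summed level of 15 macrophage genes was 1224.4 in Bo6, 760.4 in Bo3, 804.6 in Li3, 1027.1 in Li1 and 584.9 in WT, and Cd14 carried the value in Bo6. Without Cd14, left out after its values were seen, the sum of the other 14 was 296.2 in Bo6, 310.2 in Bo3, 562.6 in Li3, 814.9 in Li1 and 248.9 in WT, so both liver passages were above the other arrays. Csf1r (220 in Li3, 168.7 in Li1 and 67.6 in WT), Cd68 (172 in Li3, 173.1 in Li1 and 52.1 in WT) and Fcgr3 (19.7 in Li3, 30.4 in Li1 and 2.4 in WT) were high in both liver passages, whereas C1qa (56.1 in Li1, 0.9 to 1.2 on the other arrays), C1qb, C1qc and Lyz2 were high in Li1 alone. Summed leukocyte markers, mostly Bst1 and S100a8, ran from 1156.5 in Li1 to 1590.9 in WT and hepatocyte markers from 57 in Bo6 to 110.1 in Li3. The median intensity of an array was 21.9 in Bo6 and 24.6 to 26.4 on the other arrays. In bulk RNA, fewer cells of a type and less RNA per cell cannot be told apart.

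The induced genes were low in the final bone passage and high in the final liver passage. Of the 43, 29 had their lowest value of the 5 arrays in Bo6 (67.4%), against 26.1% of all genes tested, and 30 had their highest in Li3 (69.8%), against 19.8% of all genes. For 23 members both held, which was so for 7.15% of all genes. The lowest value lay in WT for 9 members (17.8% of all genes) and in Li1 for 5 (2989 of the 12609 genes tested). The highest lay in Bo3 for 10 (20.0% of all genes) and in Li1 for 3 (3116 of the 12609). No induced gene was highest in Bo6 or in WT, against 2170 and 2298 of the 12609 genes tested. The commonest full orders, picked out after the values were seen, were Bo6, WT, Li1, Bo3, Li3 from low to high for 14 members (0.936% of all genes) and Bo6, WT, Bo3, Li1, Li3 for 7 (1.36% of all genes). Among the receptors and kinases, 0 of 6 were 2-fold apart in any pair of arrays compared, on the probe sets used. A dimmer probe set of Tyk2 was lower in Bo6 than in Bo3 by a log2 difference of -1.21.

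**Figure D1:**
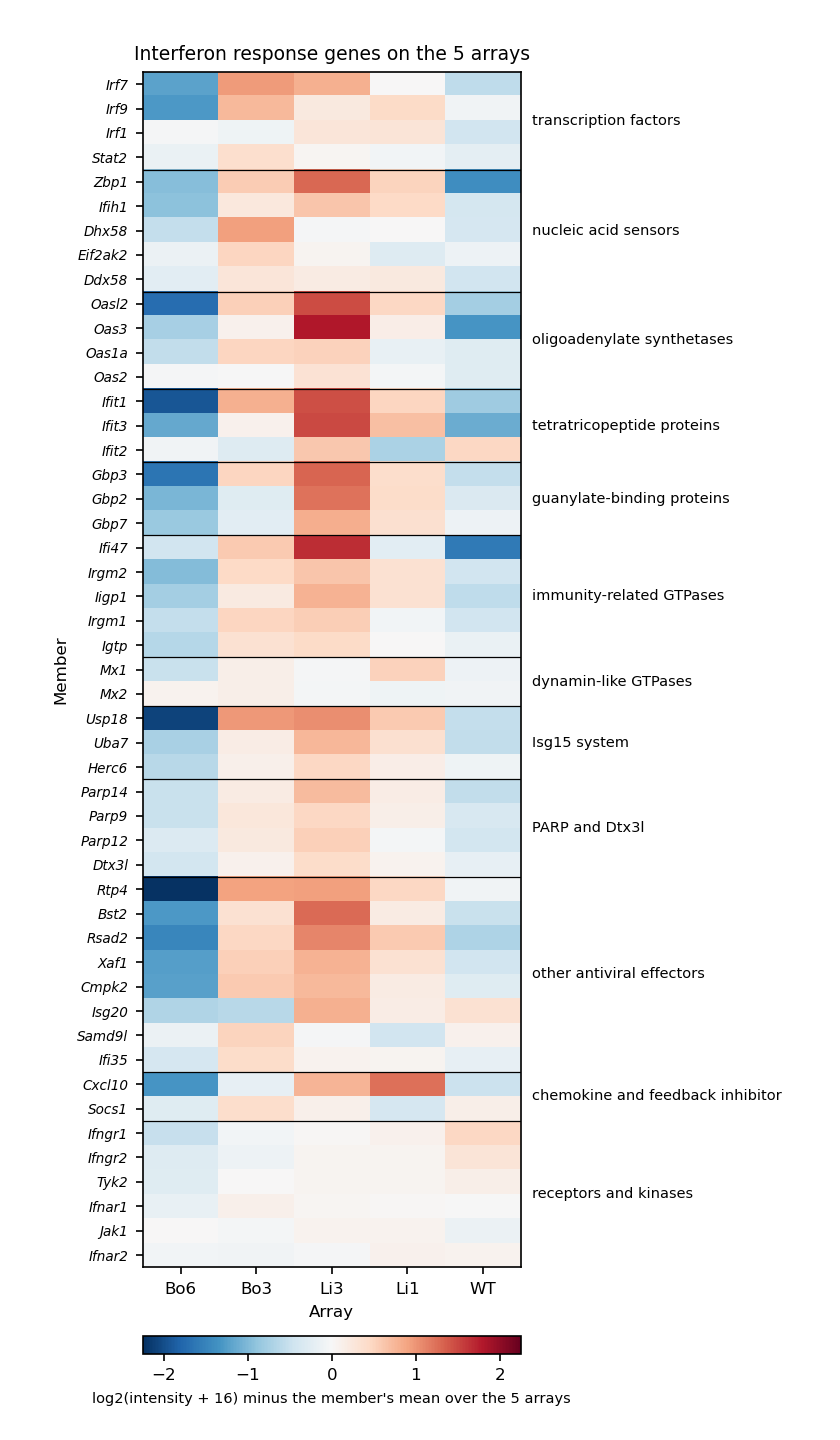
Each row is 1 of the 49 members with a value and each column 1 array, and the colour is log2(intensity + 16) minus that member's mean over the 5 arrays, so blue is below and red above its own mean. The Bo6 column is blue and the Li3 column red for most induced genes, while the 6 receptors and kinases in the lowest rows are pale on all arrays.

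The receptors and kinases are the part of the pathway that has to be present for a cell to respond. Ifnar1, the first chain of the type I receptor, read 176.2 in Bo6, 217.1 in Bo3, 205.5 in Li3, 203.9 in Li1 and 199.8 in WT. Its partner Ifnar2 read 258.6 in Bo6, 254.2 in Bo3, 263.5 in Li3, 291.1 in Li1 and 286.4 in WT. Both chains lay within a narrow band on the 5 arrays, on the probe sets used. Of the dimmer Ifnar2 probe sets, 1 ran from 58.6 in Li3 to 97.8 in WT and another from 35.8 in Bo3 to 45.7 in WT. The ligand-binding chain of the interferon gamma receptor, Ifngr1, read 149.2 in Bo6, 210.3 in Bo3, 225.7 in Li3, 236.1 in Li1 and 313.1 in WT. Its partner Ifngr2 read 175.9 in Bo6, 201.9 in Bo3, 231.3 in Li3, 229.2 in Li1 and 270.4 in WT. On the probe sets used, both gamma receptor chains were highest in the parental cells and lowest in Bo6, and Ifngr1 was 1.99-fold lower in Bo6 than in WT. Another Ifngr2 probe set was lowest in Bo6 (110.7, with Li1 at 111.4) but highest in Li3 (150.7, against 120.3 in WT). The kinase Jak1 read 660.7 in Bo6, 636.7 in Bo3, 697.6 in Li3, 690.3 in Li1 and 598.7 in WT. Tyk2, the kinase bound to Ifnar1, read 112.8 in Bo6, 140.7 in Bo3, 145.9 in Li3, 146.3 in Li1 and 153.9 in WT. On the probe sets used, Jak1 was lowest in WT and Tyk2 in Bo6, with narrow ranges in both. The other Jak1 probe sets were lowest in Bo6 (301.2 and 98.2, against 322.3 and 100.5 in WT). A dimmer Tyk2 probe set had a wider range, from 6.6 in Bo6 to 45.5 in WT. With the 2 passages of a sub-line taken as its replicates, the log2 difference of Ifngr1 between the bone sub-line and WT was -0.77 ± 0.27 (SE, n = 2 passages and 1 array), which did not pass (limma adjusted p = 0.5).

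The interferon ligands, a separate list of 13 genes, had low intensities. Of the 7 measured, 2 passed the filter on low values. Ifna1 read 3.6 in Bo6, 21.7 in Bo3, 25.7 in Li3, 22.2 in Li1 and 22.5 in WT. Ifnb1 read 16.8 in Bo6, 24.8 in Bo3, 18.3 in Li3, 26.1 in Li1 and 16.5 in WT. Interferon gamma itself, Ifng, read between 0.2 and 3.9. These values lie around or below the median of all probe sets, and no order of the arrays is read from them.

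Among the transcription factors, Irf7 and Irf9 had wide ranges, and Irf1 and Stat2 had narrow ones. Irf7, which amplifies type I interferon production, read 37.5 in Bo6, 223.9 in Bo3, 196.7 in Li3, 108.1 in Li1 and 66.5 in WT. Irf9, the DNA-binding subunit of the ISGF3 complex that binds the ISRE, read 102.6 in Bo6, 461 in Bo3, 319.1 in Li3, 375 in Li1 and 256.5 in WT. Both were lowest in Bo6 and highest in Bo3, and Bo6 was 4.48-fold below Bo3 for Irf7 and 4.02-fold below it for Irf9. Irf1, an early factor downstream of interferon gamma, read 427.3 in Bo6, 406.4 in Bo3, 527.9 in Li3, 537.1 in Li1 and 317.6 in WT. Stat2, the partner of Irf9 in ISGF3, read 34.9 in Bo6, 57.1 in Bo3, 42.5 in Li3, 38.4 in Li1 and 32.4 in WT. Irf1 was therefore above WT on all 4 sub-line arrays without the low value in Bo6 that its relatives showed, and Stat2 stayed close to the median of all values.

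The sensors bind foreign nucleic acid in the cytoplasm. Zbp1, a sensor of Z-form nucleic acid that can trigger cell death, read 52.3 in Bo6, 180.4 in Bo3, 309.4 in Li3, 171.7 in Li1 and 34.5 in WT. Ifih1, the RNA sensor MDA5, read 111.1 in Bo6, 266.8 in Bo3, 353.8 in Li3, 309.9 in Li1 and 167.4 in WT. Zbp1 was lowest in WT and Ifih1 in Bo6, and both were highest in Li3. Dhx58, the regulator LGP2 of these sensors, read 68.9 in Bo6, 217.1 in Bo3, 103.7 in Li3, 107.7 in Li1 and 78.5 in WT, so that Bo3 alone was high. Eif2ak2, the kinase PKR that stops translation on double-stranded RNA, read 126.1 in Bo6, 202.1 in Bo3, 148.2 in Li3, 111.3 in Li1 and 128.6 in WT. The RIG-I gene Ddx58 lay between 336.3 and 552.8 and was lowest in WT.

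Oligoadenylate synthetases make a messenger that switches on RNA cleavage. Oasl2 read 50.9 in Bo6, 302.6 in Bo3, 587.4 in Li3, 287 in Li1 and 112.1 in WT. Oas3 read 37 in Bo6, 78.9 in Bo3, 294.3 in Li3, 82.7 in Li1 and 19.3 in WT. Oas1a read 417.3 in Bo6, 872.6 in Bo3, 899.5 in Li3, 549.6 in Li1 and 508.3 in WT. Li3 was the highest array for each of them, by 3.14-fold over Li1 for Oas3, and the lowest was Bo6 for Oasl2 and Oas1a but WT for Oas3. Oas2 read 7.3 to 19.3 and was below the filter on low values.

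The tetratricopeptide proteins of the Ifit family bind viral RNA and block its translation. Ifit1 read 17.6 in Bo6, 207.4 in Bo3, 335 in Li3, 161.9 in Li1 and 57.1 in WT. Ifit3 read 9 in Bo6, 43.4 in Bo3, 139.7 in Li3, 72.6 in Li1 and 9.7 in WT. Ifit1 was 6.65-fold lower in Bo6 than in Bo3 and 10.4-fold lower than in Li3, with a Bo6 value below the median of all probe sets, and Ifit3 was about as low in WT as in Bo6. Ifit2 ran differently, at 217.5 in Bo6, 185.7 in Bo3, 358.9 in Li3, 133.7 in Li1 and 322.8 in WT. It was 2.5-fold higher in Li3 than in Li1, and Li1 rather than Bo6 was its lowest array.

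Guanylate-binding proteins coat and break open vacuoles of intracellular microbes. Gbp3 read 13.8 in Bo6, 113.7 in Bo3, 213.9 in Li3, 106.8 in Li1 and 48.7 in WT. Gbp2 read 41.4 in Bo6, 80.8 in Bo3, 258 in Li3, 140 in Li1 and 77.6 in WT. Gbp7 read 56 in Bo6, 92.9 in Bo3, 208.8 in Li3, 149.6 in Li1 and 102.8 in WT. All 3 were lowest in Bo6 and highest in Li3. For Gbp2 and Gbp7 the early bone passage lay near WT and both liver passages lay above it, whereas Gbp3 was above WT on 3 of the 4 sub-line arrays.

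Promoters of the induced genes are shown because many members shared an order of the arrays and interferon-induced genes are known for shared response elements. A window of 250 bases before to 50 bases after the start, taken from RefSeq (GRCm38.p6), was listed for 33 of the 43 induced genes and for 6 of 6 receptors and kinases. It was searched on both strands for an ISRE core, written here as GAAA, 2 free bases and GAAA, and for the GAS form TTCNNNGAA. An ISRE core was present in 18 of the 33 (54.5%), in 0 of the 6 receptors and kinases, and, counting a gene where any of its windows held one, in 1079 of 27025 genes of the table (3.99%). A GAS form was present in 10 of the 33 (30.3%), in 2 of the 6 (33.3%) and in 2582 genes of the table (9.55%). Both were present in 6 induced genes, and in Bst2 a core overlapped a GAS form. The promoters of Ifit1 (chr19:34640639-34640938, plus strand), Oas3 (chr5:120777610-120777909, minus strand), Gbp3 (chr3:142559794-142560093, plus strand) and Ifit3 (chr19:34583279-34583578, plus strand) belong to the members with the widest range over the 5 arrays among those with a core. They are written 5′ to 3′ in the direction of the gene, with the cores in capitals.
Ifit1: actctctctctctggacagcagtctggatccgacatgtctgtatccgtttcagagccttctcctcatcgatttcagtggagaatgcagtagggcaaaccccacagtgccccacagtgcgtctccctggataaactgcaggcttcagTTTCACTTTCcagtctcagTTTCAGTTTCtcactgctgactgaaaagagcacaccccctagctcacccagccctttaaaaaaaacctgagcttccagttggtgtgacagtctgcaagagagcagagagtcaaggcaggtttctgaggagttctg
Oas3: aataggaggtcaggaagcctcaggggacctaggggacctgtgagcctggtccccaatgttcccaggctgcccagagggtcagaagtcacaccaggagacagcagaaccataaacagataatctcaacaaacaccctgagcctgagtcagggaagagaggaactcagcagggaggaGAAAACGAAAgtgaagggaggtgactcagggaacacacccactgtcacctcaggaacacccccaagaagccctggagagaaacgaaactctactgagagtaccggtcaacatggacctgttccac
Gbp3: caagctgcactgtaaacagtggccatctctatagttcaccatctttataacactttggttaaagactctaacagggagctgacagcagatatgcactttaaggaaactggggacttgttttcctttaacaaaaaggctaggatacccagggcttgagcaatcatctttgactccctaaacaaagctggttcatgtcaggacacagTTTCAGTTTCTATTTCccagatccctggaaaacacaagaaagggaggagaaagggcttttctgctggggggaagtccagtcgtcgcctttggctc
Ifit3: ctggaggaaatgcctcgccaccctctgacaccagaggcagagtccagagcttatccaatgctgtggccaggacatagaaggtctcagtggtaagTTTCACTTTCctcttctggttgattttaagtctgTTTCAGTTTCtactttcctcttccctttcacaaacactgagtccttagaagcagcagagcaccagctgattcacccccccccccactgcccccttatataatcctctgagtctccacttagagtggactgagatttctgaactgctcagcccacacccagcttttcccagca
The 2 cores of Ifit1 begin 104 and 85 bases before the start, those of Ifit3 156 and 122 bases before it, and the core of Oas3 75 bases before it. In Gbp3 the 2 cores, 45 and 39 bases before the start, share the middle tetramer. A match is a description of letters and not evidence of binding, and Oasl2 and Ifi47, which also had wide ranges, hold no core in this window. Dhx58, Zbp1, Oas2, Iigp1, Mx1, Mx2, Usp18, Parp9, Parp14 and Rtp4 have no entry in the table.

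**Figure D2:**
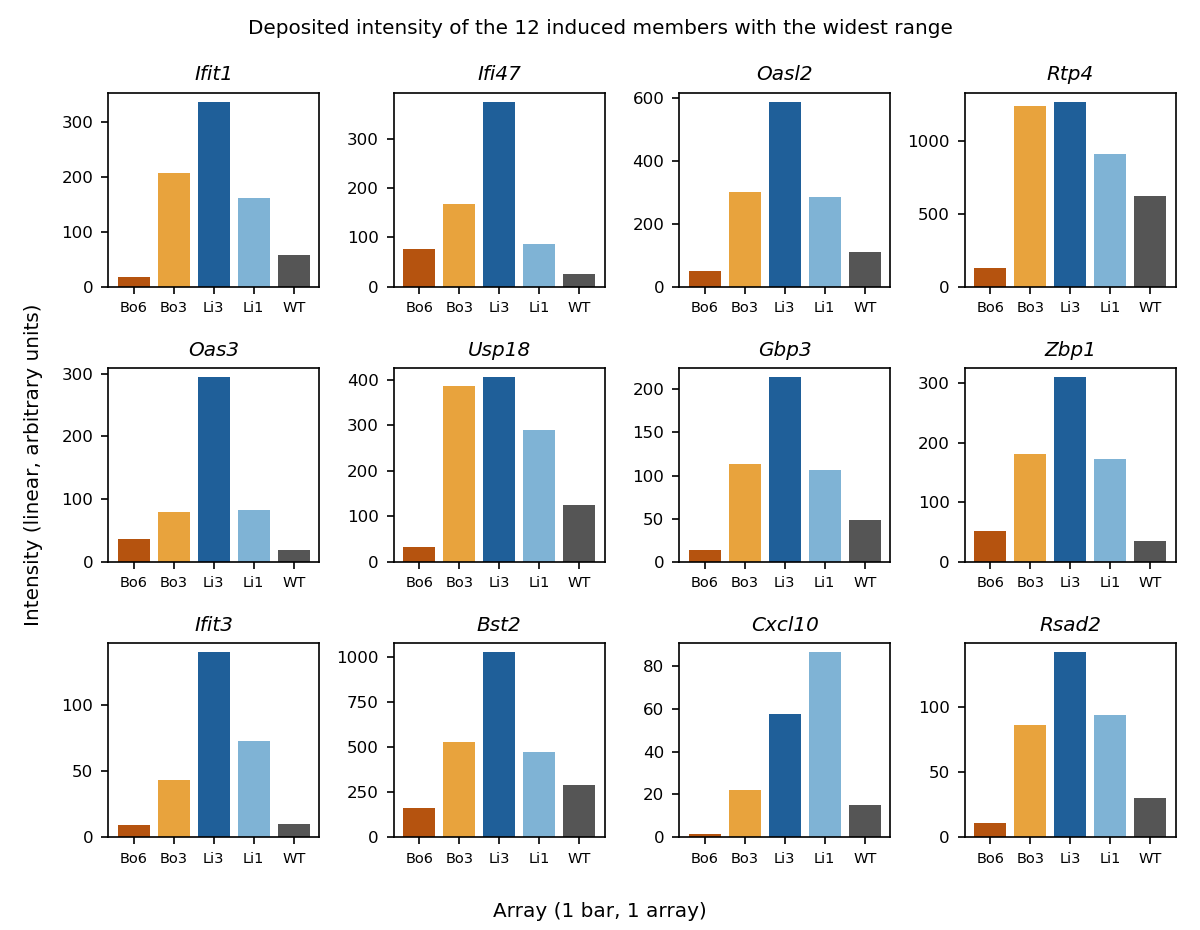
Bars give the deposited intensity on each of the 5 arrays, on a linear axis from 0, for the 12 induced genes with the widest range of log2(intensity + 16), 1 bar per array and with a separate vertical scale per gene. Li3 is the tallest bar in each panel except Cxcl10, where Li1 is, and Bo6 is the shortest in each except Ifi47, Oas3 and Zbp1, where WT is.

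The immunity-related GTPases act on the vacuoles of intracellular parasites and bacteria. Ifi47 read 75.6 in Bo6, 167.9 in Bo3, 374 in Li3, 87.6 in Li1 and 24.9 in WT, and was the 1 member at least 2-fold higher in Bo6 than in WT. Irgm2 read 58.2 in Bo6, 184.6 in Bo3, 208.7 in Li3, 170.2 in Li1 and 92.7 in WT. The array on which a gene was lowest thus differed within this group. For Iigp1 the values were 29.2 in Bo6, 72.1 in Bo3, 116.2 in Li3, 81.2 in Li1 and 35.7 in WT. Irgm1 read 195.9 in Bo6, 417.2 in Bo3, 437.7 in Li3, 278.8 in Li1 and 211.9 in WT. Irgm2, Iigp1 and Irgm1 were lowest in Bo6 with WT next, and Ifi47 was lowest in WT. Igtp, the fifth gene of this group, lay between 176.3 and 388 in the same order as Irgm1. The dynamin-like GTPase Mx1, an inhibitor of influenza virus, read 4.9 in Bo6, 16.1 in Bo3, 13.1 in Li3, 26 in Li1 and 11.1 in WT. Its relative Mx2 read 2.9 to 6.1, and both lay near the bottom of the scale.

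The Isg15 system attaches the ubiquitin-like protein Isg15 to other proteins and removes it. Usp18, the protease that removes Isg15 and also dampens signalling at Ifnar2, read 32.3 in Bo6, 386.7 in Bo3, 405.3 in Li3, 289.9 in Li1 and 125.2 in WT. Uba7, the activating enzyme, read 42.4 in Bo6, 92.6 in Bo3, 145.8 in Li3, 107.9 in Li1 and 49.6 in WT. Herc6, the main ligase in mouse, read 98.7 in Bo6, 175.5 in Bo3, 227.9 in Li3, 179.2 in Li1 and 148.2 in WT. The order was alike for the 3 genes at its ends, with Bo6 lowest and Li3 highest, but the size was not: Bo6 lay 8.34-fold below Bo3 for Usp18, 1.86-fold below it for Uba7 and 1.67-fold below it for Herc6.

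The ADP-ribosyltransferases and the ligase Dtx3l, which pairs with Parp9, had narrower ranges. Parp14 read 109.2 in Bo6, 186.4 in Bo3, 272.6 in Li3, 181.9 in Li1 and 104.4 in WT. Parp9 read 323.8 in Bo6, 557.3 in Bo3, 650.9 in Li3, 510.2 in Li1 and 361 in WT. Both were highest in Li3, and the lowest array was WT for Parp14 and Bo6 for Parp9. Dtx3l read 322.3 in Bo6, 463.1 in Bo3, 581.4 in Li3, 460 in Li1 and 376.8 in WT. Parp12 read 358.6 in Bo6, 526.7 in Bo3, 661.3 in Li3, 433.3 in Li1 and 334 in WT. In this group 0 of 4 were 2-fold lower in Bo6 than in Bo3, and Parp14 alone was 2-fold higher in Li3 than in WT.

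Of the other antiviral effectors, Rtp4, a membrane-protein chaperone that also restricts viruses, had a wide gap between the bone passages. It read 128.5 in Bo6, 1240.2 in Bo3, 1266.5 in Li3, 912 in Li1 and 625.3 in WT, 8.69-fold lower in Bo6 than in Bo3. Bst2, the tetherin that holds budding virus at the cell surface, read 159.4 in Bo6, 528.8 in Bo3, 1025.7 in Li3, 472.3 in Li1 and 290.2 in WT. Bst2 was both 3.11-fold lower in Bo6 than in Bo3 and 2.13-fold higher in Li3 than in Li1. Rsad2, the enzyme viperin that makes a chain-terminating nucleotide, read 10.7 in Bo6, 86.1 in Bo3, 142.3 in Li3, 94.2 in Li1 and 29.7 in WT. Xaf1, a factor that promotes cell death, read 165.9 in Bo6, 600.4 in Bo3, 722.7 in Li3, 525.6 in Li1 and 300.2 in WT. All 4 were lowest in Bo6 and highest in Li3. The nucleotide kinase Cmpk2, a neighbour of Rsad2 in the genome, lay between 6.4 in Bo6 and 70 in Li3. Samd9l and Ifi35 were highest in Bo3, at 533 and 1579.1. The exonuclease Isg20, described because it had the lowest adjusted p of the members between bone and liver, read 96.2 in Bo6, 101.3 in Bo3, 296.2 in Li3, 186.7 in Li1 and 212.7 in WT, so that both bone passages lay below the liver passages and the parental cells.

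Cxcl10, the chemokine that draws T cells and natural killer cells, read 1.3 in Bo6, 22.2 in Bo3, 57.6 in Li3, 86.5 in Li1 and 14.9 in WT. Both liver passages were above the median of all values and the other 3 arrays below it. The sum of the macrophage markers other than Cd14 was also highest in Li1 and next in Li3. The part of these markers in the values of Cxcl10 was not tested. The feedback inhibitor Socs1 read 12.7 in Bo6, 29.7 in Bo3, 21.2 in Li3, 10.6 in Li1 and 21.9 in WT, below the median of all values on all arrays but Bo3.

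**Figure D3:**
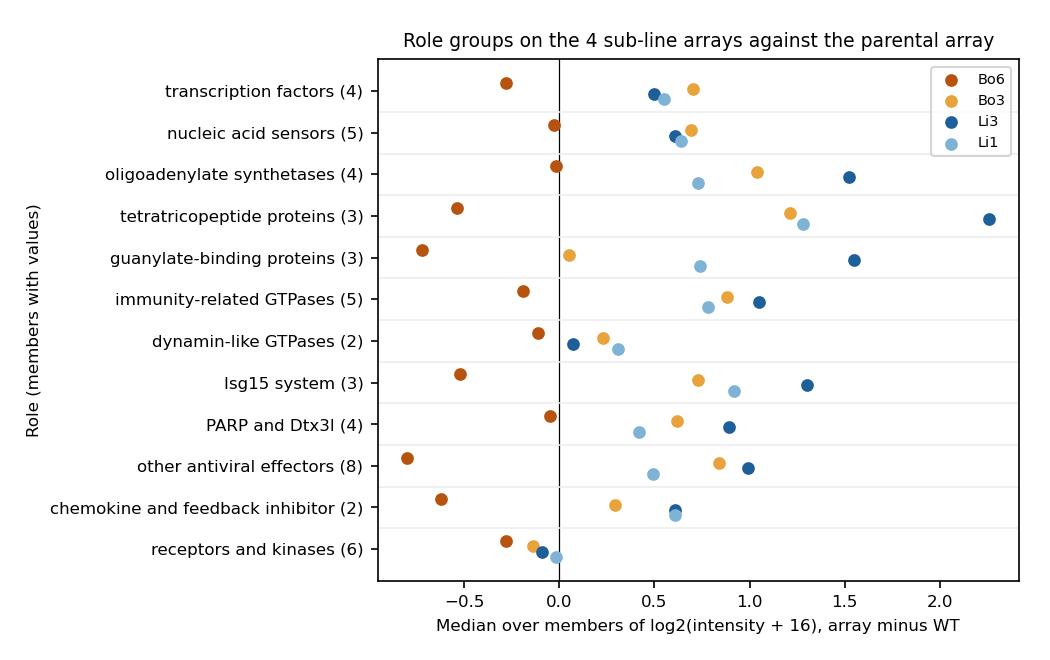
Points give the median over the members of each role of log2(intensity + 16) on Bo6, Bo3, Li3 and Li1 minus the same on WT, with the number of members with values in parentheses and a line at 0. In each role the Bo6 point is the leftmost, and the Li3 point is farthest right, at 2.26, for the tetratricopeptide proteins.

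Against the parental cells, the final liver passage had the most members above the 2-fold mark. In Li3, 19 of the 43 induced genes were at least 2-fold higher than in WT and 0 were 2-fold lower, against 2.19% and 1.71% of all genes tested. Their median log2 difference was 0.99 (range -0.12 to 3.25), against 0.013 over all genes tested, and it was -0.09 for the 6 receptors and kinases. The largest were Ifi47 (9.54-fold), Oas3 (8.79-fold), Zbp1 (6.44-fold) and Ifit3 (6.06-fold). In Li1, 9 members were 2-fold higher than in WT (1.93% of all genes) and 1, Ifit2, was 2-fold lower (2.60% of all genes), with a median of 0.59. Zbp1 (3.72-fold), Ifit3 (3.45-fold) and Cxcl10 (3.32-fold) led there. The summed macrophage markers without Cd14 were also above WT in Li3 and Li1 (562.6 and 814.9, against 248.9), and their part in these differences was not tested. Of the 15 macrophage genes, 2 were at least 2-fold higher in Li3 than in WT, against 2.19% of all genes.

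The medians of the 2 bone passages lay on opposite sides of the parental cells. In Bo6, 1 induced gene was at least 2-fold higher than in WT (1.47% of all genes) and 6 were 2-fold lower (3.17% of all genes), namely Irf9, Ifit1, Gbp3, Usp18, Isg20 and Rtp4. The median was -0.37 (range -2.15 to 1.16), and Rtp4 was 4.44-fold lower. With either median centring or quantile normalization 3 members in place of 6 were 2-fold lower, and the median was -0.22 or -0.25. The share of all genes 2-fold lower was not computed for these scalings. In Bo3, 11 were 2-fold higher (2.43% of all genes) and 0 were 2-fold lower (1.93% of all genes), with a median of 0.73 (range -0.96 to 2.17). Ifi47 (4.50-fold), Zbp1 (3.89-fold) and Ifit1 (3.06-fold) were the largest in Bo3. These 4 comparisons share the single parental array, so an error on that array would enter each of them.

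Between passages, most members were lower in the final bone passage and higher in the final liver passage. In the bone sub-line, 20 of 43 were at least 2-fold lower in Bo6 than in Bo3 and 0 were 2-fold higher, against 2.07% and 0.357% of all genes tested. The median log2 difference was -0.96 (range -3.12 to 0.21), and 41 of 43 lay below 0. Rtp4, Usp18 (8.34-fold), Ifit1, Oasl2 (4.76-fold) and Irf7 were furthest apart on this scale, and Ifit2 and Irf1 were the 2 members not lower in Bo6. Bo6 also had the lowest array median, and with each array centred on its median log2 value the difference between the bone passages had a median of -0.80 over the induced genes, with 25 of 43 lowest in Bo6. The share of all genes lowest in Bo6 was not computed with this centring. The summed macrophage markers without Cd14 were 296.2 in Bo6 and 310.2 in Bo3. In the liver sub-line 4 members, Oas3, Ifit2, Ifi47 and Bst2, were at least 2-fold higher in Li3 than in Li1 and 0 were 2-fold lower, against 1.68% and 1.13% of all genes, with a median of 0.45 (range -0.53 to 1.91). Of the 43, 36 were lower in Bo6 than in Bo3 and also higher in Li3 than in Li1 by any amount, against 27.9% of all genes. By at least 2-fold in both, this held for 2 members, Ifi47 and Bst2, against 0.0634% of all genes. The bone pair spans passages 3 to 6 and the liver pair passages 1 to 3, so the 2 differences do not cover the same stretch of passaging.

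**Figure D4:**
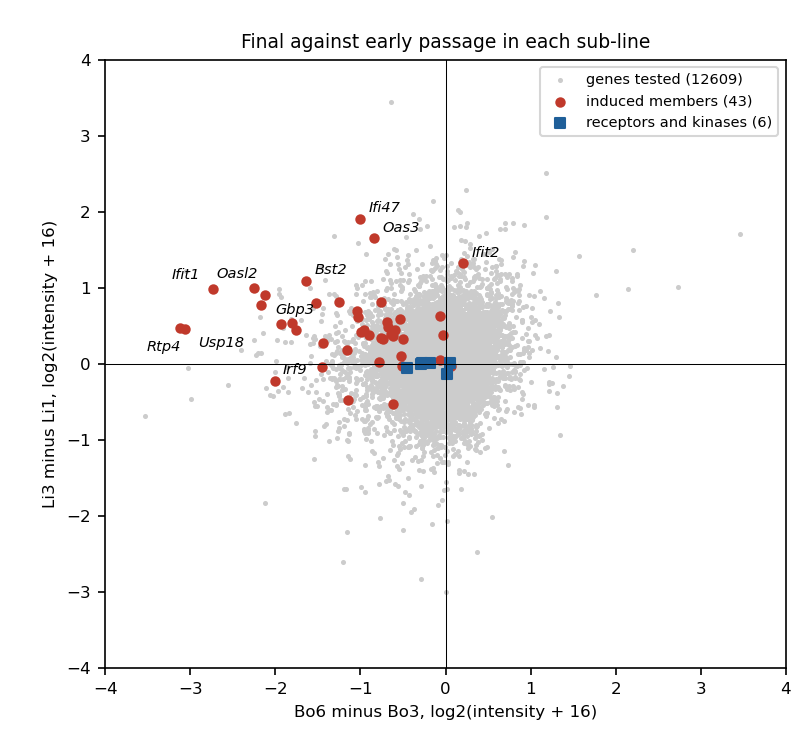
Each point is a gene, placed by Bo6 minus Bo3 on the horizontal axis and by Li3 minus Li1 on the vertical axis, both in log2(intensity + 16), with all 12609 genes tested in grey, the 43 induced genes in red and the 6 receptors and kinases as blue squares. Most red points lie to the upper left, lower in the final bone passage and higher in the final liver passage, and the squares lie near the crossing of the axes. The axes leave out 2 of the grey genes.

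Against the final liver passage, both bone passages had members below the 2-fold mark. In Bo6, 28 of 43 induced genes were at least 2-fold lower than in Li3 and 0 were 2-fold higher, against 3.50% and 1.14% of all genes, with a median of -1.48 (range -3.38 to 0.11) and 42 of 43 below 0. Ifit1, Oasl2 (9.02-fold), Rtp4 (8.88-fold), Usp18 (8.72-fold) and Gbp3 (7.71-fold) were furthest apart on this scale. In Bo3, 6 were 2-fold lower than in Li3 (2.36% of all genes) and 0 were 2-fold higher (2.24% of all genes), with a median of -0.32. Those 6 were Oas3, Ifit3, Gbp2, Gbp7, Ifi47 and Isg20.

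Tests across the lines treated the 2 passages of each sub-line as its replicates, and the gap between Bo6 and Bo3 then counted as spread. Limma fits a linear model to each gene and shares the estimate of the spread over all genes. Between the bone and liver sub-lines limma called 0 of the 47 tested members at an adjusted p under 0.05, against 0.190% of all genes tested. At an unadjusted p under 0.05, 7 members were lower in bone (9.05% of all genes), namely Cxcl10, Isg20, Gbp2, Gbp7, Ifit3, Uba7 and Iigp1. The number of members passing that p in either direction rose without Bo3 and fell without Li3, fits that leave 1 array in a sub-line. With median centring it was 14. Limma's calls over all genes at an adjusted p under 0.05 also rose with median centring, from 24 to 130. The share of all genes passing the unadjusted p was not computed for these settings. Cxcl10 was lower by a log2 difference of -1.76 ± 0.39 (SE, n = 2 passages each; limma adjusted p = 0.157) and Isg20 by -1.13 ± 0.25 (limma adjusted p = 0.152). Both bone values of Cxcl10 lay below the median of all probe sets, and its difference was -3.29 with a pseudocount of 1 and -0.85 with 64. Gbp2 (-1.47 ± 0.36) and Gbp7 (-1.12 ± 0.27) followed, at limma adjusted p of 0.183 and 0.182. For these 7, on the probe sets used, both bone passages lay below both liver passages, whereas for Rtp4 and Usp18 Bo3 lay between the liver passages. On another Uba7 probe set Bo3 (86.9) lay above Li1 (82.4). The summed macrophage markers without Cd14 were also lower in bone (296.2 in Bo6 and 310.2 in Bo3, against 562.6 in Li3 and 814.9 in Li1). With Cd14 the sum was highest in Bo6 (1224.4). The part of these markers in the differences was not tested.

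The count depended on the early bone passage. Without Bo3, Bo6 and WT were single arrays, so each gene's own spread in that fit came from Li3 and Li1 alone. For that reason only differences are given for it. The members named for it were picked by the adjusted p of that same fit, so they do not stand for the members in general. Bo6 lay below the liver sub-line by a log2 difference of -2.92 for Rtp4, -2.89 for Usp18 and -2.89 for Ifit1. The difference was -2.68 for Oasl2, -2.50 for Gbp3, -2.33 for Cxcl10 and -2.31 for Rsad2. Another fit took only the 4 sub-line arrays, with early or final stage entered as a block. In it limma called 1 of 47 tested members, Cxcl10 (-1.76, limma adjusted p = 0.0229), against 1.28% of all genes. That count is not read as a result about the members. The fit has few arrays for its terms and treats Bo3 and Li1 as the same stage, though their passages differ. Cxcl10 read 1.3 in Bo6 and 22.2 in Bo3, both below the median of all values.

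Against the parental array limma called 0 members in either sub-line, where 0.135% of all genes tested were called in bone and 0.0159% in liver. In the liver sub-line 10 members were higher at an unadjusted p under 0.05 (4.08% of all genes): Cxcl10, Gbp2, Ifi47, Ifit3, Iigp1, Irf1, Oas3, Parp14, Uba7 and Zbp1. For Uba7 the log2 difference was 1.11, and 0.18 with a pseudocount of 1. Another Uba7 probe set read 97.8 in Li3, 82.4 in Li1 and 79.3 in WT. The number of members passing that p in either direction rose without either bone array and fell without Li3. With a pseudocount of 1 it was 5. The share of all genes passing the unadjusted p was not computed for these settings. Ifit3 had the largest ratio of difference to error, 2.19 ± 0.56 on the log2 scale (SE, n = 2 passages and 1 array; limma adjusted p = 0.407), and Oas3 (2.31 ± 0.68), Ifi47 (2.30 ± 0.78) and Zbp1 (2.29 ± 0.63) had larger differences with wider errors. In the bone sub-line 2 members were lower at an unadjusted p under 0.05 (4.85% of all genes), Ifngr1 and Isg20 (-1.0 ± 0.31; limma adjusted p = 0.423). The number of members with an unadjusted p under 0.05, in either direction, rose when any sub-line array was left out. Each of those fits leaves 1 array in a sub-line, and the share of all genes in them was not computed. The spread behind these p-values is that between passages of 1 lineage each, which are not separate derivations of a sub-line.

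Other probe sets of the induced genes mostly pointed the same way. Of the induced genes, 15 had further probe sets above the filter, 22 in all. Of these 22, 22 were lower in Bo6 than in Bo3, 21 were lower in Bo6 than in Li3 and 21 were higher in Li3 than in WT. For Rtp4 the second probe set gave a log2 difference of -1.25 between Bo6 and Bo3, against -3.12 on the one used, and for Zbp1 -1.47 against -1.52.

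A further list of 77 interferon-induced genes outside the 52 members, 67 of them measured, was set beside them. Of these 67, 30 were lowest in Bo6 and 35 highest in Li3 (26.1% and 19.8% of all genes), 4 were at least 2-fold lower in Bo6 than in Bo3 (2.07% of all genes) and 13 were at least 2-fold higher in Li3 than in WT (2.19% of all genes). Limma called 0 of the 59 tested between bone and liver, against 0.190% of all genes, and 10 were lower at an unadjusted p under 0.05, against 9.05% of all genes. Psmb8 and Lgals3bp, among the widest ranges of that list, had another pattern. The immunoproteasome subunit Psmb8 read 1377.2 in Bo6, 1406 in Bo3, 1973.4 in Li3, 1371.7 in Li1 and 271.1 in WT. The secreted glycoprotein Lgals3bp read 487.1 in Bo6, 796 in Bo3, 1135.1 in Li3, 561.3 in Li1 and 33.5 in WT. Both were high on all 4 sub-line arrays, Bo6 included, and low in the parental cells. The helicase Ddx60, at 25.3 in Bo6, 139.9 in Bo3, 196.7 in Li3, 137.1 in Li1 and 41.9 in WT, had the order found in 14 of the 43 induced members.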

How the data were processed

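RNA of 5 samples was hybridised to 5 one-colour Affymetrix mouse arrays, from 5 ug of total RNA per the labels' protocols. For each of 45101 probe sets the authors deposited 1 intensity. RMA is named in the submitters' processing notes, with no version given, but the values are on a linear scale. All results use log2(intensity + 16) without another normalization step, and fold changes on it come out too small for dim genes. Names are those of the platform annotation: 34945 probe sets listed 1 gene and were used, and 932 listed several and were left out, as were 64 control probe sets. The symbols of 34754 probe sets matched a RefSeq table of GRCm38.p6 by gene identifier, and 0 changed.

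Limma 3.58.1 in R 4.3.3 (lmFit and eBayes) was fitted on the 12609 genes with a highest intensity of at least 25.1, over the 3 lines, with Benjamini-Hochberg adjustment over all of them and a threshold of 0.05. Residual degrees of freedom were 2 and prior degrees of freedom 4.2. The fit was tested on simulated data and takes the passages of a sub-line as replicates and the lone parental array as varying like them. Single pairs of arrays have counts past 2-fold with no test. The number of arrays limits the precision. Alternatives were other pseudocounts, filters, scalings, probe set rules, priors, a stage block, a 3-fold threshold and leaving out each array. All members are named. All 5 values are given for receptors and kinases and for up to 4 members of each role with the widest range among those past the filter. Cd14 was set aside from the macrophage sum after its values were seen. The members and lists were chosen with earlier results of these data known.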

Additional observations from a re-analysis of the deposited data

Results flagged for a closer look

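The induced genes differed between the sub-lines in the direction of the final against the early passage. Of the 43 induced genes, 36 were lower in Bo6 than in Bo3 and higher in Li3 than in Li1, against 27.9% of all genes. By at least 2-fold in both, this held for Ifi47, with log2 differences of -1.01 in bone and 1.91 in liver, and for Bst2, with -1.64 in bone and 1.09 in liver. The share of all genes 2-fold apart in both was 0.0634%. Each passage is 1 array, so the difference between the sub-lines was not tested.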

How the results depend on the processing

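Limma's count of members called between bone and liver, 0, was 1 with the stage block (1.28% of all genes) and rose without Bo3. The fit without Bo3 leaves 1 bone array, and each gene's own spread in it came from Li3 and Li1 alone. Of 40 alternatives to the 3 limma counts of members, 38 gave 0. The counts over all genes ran from 0 to 161 between bone and liver (24 as reported), from 1 to 99 between bone and parental cells (17) and from 0 to 38 between liver and parental cells (2).

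With a pseudocount of 64 the members at least 2-fold apart numbered 6 for Bo3 against WT (11 as reported), 1 for Bo6 against WT (7), 1 for Li1 against WT (10), 12 for Li3 against WT (19), 13 for Bo6 against Bo3 (20) and 3 for Bo3 against Li3 (6). At 3-fold they numbered 3 for Bo3 against WT, 1 for Bo6 against WT, 3 for Li1 against WT, 9 for Li3 against WT, 11 for Bo6 against Bo3, 2 for Li3 against Li1 (4), 1 for Bo3 against Li3 and 18 for Bo6 against Li3 (28), fewer because the threshold is stricter. For Bo6 against WT the count was 13 with a pseudocount of 1 and 4 with either median centring or quantile normalization, which left 3 members lower in place of 6. The share of all genes past the same mark was not computed for any of these settings. With a pseudocount of 1, 1 member was 2-fold lower in Bo3 than in WT, where 0 were as reported. At that setting 1 member was also 2-fold higher in Bo3 than in Li3, against 0 as reported. The cause of these changes was not tested. Reversal was checked only for the limma differences of members with an unadjusted p under 0.05, and none of those reversed. Of 66 other alternative counts, 49 were within 1.5 times of the count as reported. These include the setting without a filter for each pair of arrays. It could not change a count, because members were counted in pairs without the filter, so the 49 overstate the stability.

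Median centring moved the median of all genes tested from -0.044 to 0.107 for Bo6 against WT, and the median of the induced genes from -0.37 to -0.22. For Bo6 against Bo3 the induced median was -0.80 with centring and -0.82 with quantile normalization (-0.96 as reported). The number of induced genes lowest in Bo6, 29, was 25 with centring, 27 with quantile normalization, 33 with averaged probe sets, 32 without Li1 and 36 without the parental array, settings chosen after seeing the data. The share of all genes lowest in Bo6 was not computed for these settings. The 3 members without a value, the dim members and the single array per passage limit the counts.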

Other observations

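Further genes of the pathway outside the members varied in their own ways. The DNA receptor gene Tlr9 read 47.1 in Bo6, 5.3 in Bo3, 46.8 in Li3, 7.4 in Li1 and 51.7 in WT, high in both final passages and the parental cells and low in both early passages. Tnfaip3, an inhibitor of NF-kB signalling, read 453.5 in Bo6, 246.5 in Bo3, 526 in Li3, 223.8 in Li1 and 467.7 in WT, with the same arrays high and low. The cytoplasmic DNA sensor Cgas read 20.7 in Bo6, 25.9 in Bo3, 90.7 in Li3, 74.1 in Li1 and 55.4 in WT, low in both bone passages. Tlr3, a receptor for double-stranded RNA, read 890.6 in Bo6, 1092.6 in Bo3, 1155.1 in Li3, 1096.5 in Li1 and 606.8 in WT, lowest in the parental cells. Nlrc5, a regulator of class I antigen presentation genes, read 8.5 in Bo6, 12.8 in Bo3, 51.7 in Li3, 21.8 in Li1 and 14.9 in WT. Limma called 0 of the 23 tested genes of this signalling list between bone and liver (0.190% of all genes), and 4 were lower in bone at an unadjusted p under 0.05 (9.05% of all genes).

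Among further induced genes, the chemokine Ccl5 read 1.5 in Bo6, 35.7 in Bo3, 59.3 in Li3, 46.4 in Li1 and 15.7 in WT, lowest in Bo6. The immunoproteasome subunit Psmb9 read 257.2 in Bo6, 327.5 in Bo3, 500.6 in Li3, 269.2 in Li1 and 79 in WT, and was high on all 4 sub-line arrays. The inflammatory caspase Casp4 read 45.7 in Bo6, 35.7 in Bo3, 74.3 in Li3, 116.7 in Li1 and 14.7 in WT, highest in Li1.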
